A study of Rattus norvegicus with 6 samples.

Results

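The cluster of miR-322, miR-503 and miR-542 is a group of small regulatory RNAs encoded close together on the rat X chromosome. Its miRNAs were measured in the terminal hindgut of rat fetuses with Agilent arrays for rat miRNAs, labelled in a single colour (Cy3). Names on the array with the stems miR-322, miR-503, miR-351, miR-542 or miR-450a, in either arm, numbered 10 of the 758 miRNAs. Of these, 7 were kept. They were selected on detection, which required that at least 0.5 of a probe's spots be well above background on 3 or more of the 6 arrays, whatever the group. They were miR-322-5p, miR-322-3p, miR-503-5p, miR-351-5p, miR-542-5p, miR-542-3p and miR-450a-5p, out of 230 miRNAs that met the same criterion and were tested.

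The ARM group held 3 samples from fetuses with an anorectal malformation. Their Sprague Dawley dams, 4 in the treated group, had been given ethylenethiourea (ETU) at 125 mg/kg as a 1% solution by stomach tube on gestational day 10. The control group held 3 samples from healthy fetuses whose dams had been given distilled water by the same route and on the same day. All fetuses were taken on embryonic day 20. Total RNA came from the last 1 cm of hindgut, and 0.2 ug of it was labelled. ETU inhibits thyroid peroxidase and disturbs caudal development in rat embryos. Fetuses were sorted by whether the malformation was seen under a light microscope, so exposure to ETU and the malformation are joined in the ARM group and cannot be told apart. The labels do not tie samples to dams or say whether 1 sample is 1 fetus, so the p-values measure the spread between these samples, which may be technical in part.

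A miRNA guides the silencing machinery to messenger RNAs that pair with its seed, bases 2 to 8 from its 5′ end. One precursor hairpin can yield a 5p arm and a 3p arm, which have different seeds and so different targets. The miR-322 and miR-503 pair (miR-322 is the rodent counterpart of human miR-424) belongs to the wider miR-15/16 family, known for lowering cyclins and other drivers of cell division. In cultured mouse myoblasts, miR-322 and miR-503 increase during differentiation and promote exit from the cell cycle. miR-542-3p is known from human cells as a repressor of survivin, an inhibitor of cell death.

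The mature sequences of the 7 measured members are shown to make visible which of them can share targets. They are from RefSeq on the GRCr8 assembly, 5′ to 3′, and the capitals mark the seed, bases 2 to 8.
miR-322-5p: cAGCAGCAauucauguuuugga
miR-503-5p: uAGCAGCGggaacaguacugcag
miR-322-3p: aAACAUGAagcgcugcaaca
miR-351-5p: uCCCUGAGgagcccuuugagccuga
miR-542-5p: cUCGGGGAucaucaugucacga
miR-542-3p: uGUGACAGauugauaacugaaa
miR-450a-5p: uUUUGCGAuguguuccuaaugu

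No seed of 7 bases occurred in more than 1 of the 7 members. The seeds of miR-322-5p and miR-503-5p were the same over bases 2 to 7 and differed at base 8. Members of other loci on the array carried the seeds of miR-322-5p and miR-351-5p, and their sequences are shown because these relatives were measured on the same arrays and are compared with the members further on. The capitals again mark bases 2 to 8.
miR-15b-5p: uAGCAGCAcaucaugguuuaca
miR-16-5p: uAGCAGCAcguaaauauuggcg
miR-195-5p: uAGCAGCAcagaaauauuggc
miR-497-5p: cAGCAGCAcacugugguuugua
miR-125a-5p: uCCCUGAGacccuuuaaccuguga
miR-125b-5p: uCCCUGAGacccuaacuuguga

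All of the members' hairpins lay on the minus strand of the X chromosome (GRCr8). The miR-322 hairpin spanned chrX:137726147-137726241. In the direction of transcription, the hairpin of miR-503 began 315 bases after that of miR-322, that of miR-351 1045 bases after it, that of miR-542 3987 bases after it and that of miR-450a 5218 bases after it. RefSeq annotated a long noncoding RNA, LOC102550366, over the miR-322, miR-503 and miR-351 hairpins at chrX:137724960-137729208. The nearest protein-coding genes were Plac1, a placental gene 14655 bases away, and Hprt1, an enzyme gene of purine salvage 33215 bases away. For the 2 hairpins of which both arms were detected, the precursor is shown with the measured arms in capitals, the 5p arm first.
Mir322: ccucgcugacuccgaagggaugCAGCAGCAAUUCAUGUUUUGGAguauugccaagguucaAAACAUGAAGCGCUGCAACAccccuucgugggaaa
Mir542: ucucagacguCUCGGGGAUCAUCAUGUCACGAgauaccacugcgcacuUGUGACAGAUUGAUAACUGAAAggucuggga

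Between 22.3% and 26.3% of the miRNA spots were well above background on an array, no spot was saturated, and 207 to 246 miRNAs were detected. With 3 arrays a group, the precision of each value is limited by their number. ARM arrays were dimmer before scaling, with a 75th percentile of 203 to 221 in ARM and 225 to 290.4 in control over the 300 probes that every array detected. Levels are therefore given after scaling each array to that percentile, as log2 of the scaled signal averaged over the probes of a miRNA. Across the 230 tested miRNAs the median ARM minus control difference was 0.17 on the log2 scale with this scaling and -0.13 with no scaling. Slide 1 carried ARM arrays 1 and 2 and all controls, and ARM array 3 was on slide 2. Of markers of the labelled tissue, all 10 listed intestinal epithelial miRNAs were tested, and 2 of 4 listed smooth muscle miRNAs, miR-143-3p and miR-145-5p, were detected on every array.

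Each of the 5 stems gave a measurable miRNA, and 5 of the 7 were detected on all 6 arrays. The members just inside the detection criterion were miR-450a-5p, detected on 2 ARM and 3 control arrays, and miR-351-5p, detected on 1 ARM and 3 control arrays. Just outside it were miR-351-3p, miR-503-3p and miR-450a-3p, none of which any array detected. Their probes' scaled signals reached at most 7.63, -0.387 and -0.508, while the dimmest detected probe of an array had a scaled signal between 11.97 and 16.8. The other arms of the same hairpins, miR-351-5p, miR-503-5p and miR-450a-5p, were detected. miR-450b, whose hairpin lies between those of miR-542 and miR-450a, was detected by no array in either arm.

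Both arms of miR-322 were lower in ARM hindgut. The 5p arm had levels of 5.43, 5.06 and 5.52 on ARM arrays 1 to 3, against 6.57, 6.50 and 6.21 on control arrays 1 to 3. Every ARM array lay below every control array, with 0.69 between the highest ARM and the lowest control level. The means were 5.34 ± 0.24 in ARM and 6.43 ± 0.19 in control (SD, n = 3 each), a difference of -1.09 (SE 0.20) that puts ARM at 47.0% of control (limma, Benjamini-Hochberg adjusted p = 0.0330). In bulk tissue, fewer cells that express a miRNA and less of it per cell cannot be told apart, here or in the results that follow.

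The opposite arm, miR-322-3p, had levels of 2.94, 2.60 and 3.58 on ARM arrays 1 to 3, against 4.67, 4.30 and 3.92 on control arrays 1 to 3. The groups again did not overlap, and ARM array 3 came within 0.35 of control array 3. Means were 3.04 ± 0.49 in ARM and 4.30 ± 0.37 in control (SD, n = 3 each), a difference of -1.26 (SE 0.31) and 41.9% of the control level (limma, adjusted p = 0.0385). The 5p minus 3p difference in log2 level within an array averaged 2.30 ± 0.31 in ARM and 2.13 ± 0.20 in control (SD, n = 3 each). That difference of 0.17 was within the spread between arrays (two-sided exact permutation test, p = 0.5), and its sign turned with a floor of 10 (-0.59), the total gene signal (-0.67), normexp background correction (-0.33), the brightest probe (-0.041) and detected probes only (-0.095). With a floor of 10 miR-322-3p itself was at -0.50 and still passed (limma, adjusted p = 0.0493).

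miR-503-5p, encoded next to miR-322, showed the largest difference of the measured members with the reported processing, though not with the total gene signal, where it was at -1.06 and 4 others were further from 0. Its levels were 5.42, 4.66 and 5.48 on ARM arrays 1 to 3, against 7.06, 6.85 and 6.26 on control arrays 1 to 3. The lowest control array lay 0.78 above the highest ARM array. The means of 5.19 ± 0.45 in ARM and 6.73 ± 0.42 in control (SD, n = 3 each) differed by -1.54 (SE 0.30), which puts ARM at 34.4% of control (limma, adjusted p = 0.0337). It had the tenth lowest fold change of the 230 tested miRNAs.

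miR-351-5p, a rodent miRNA with the seed of miR-125, was dim throughout. Its levels were 0.89, 1.35 and 1.50 on ARM arrays 1 to 3, against 1.76, 1.62 and 1.48 on control arrays 1 to 3, so that control array 3 lay inside the ARM range. The difference of -0.37 (SE 0.21) did not pass the test (limma, adjusted p = 0.207). The mean over its 4 probes takes in undetected ones with scaled signals of at most 4.63, and only 1 of the 4 was detected on any array. That probe had scaled signals of 11.8, 11.7 and 18.1 on ARM arrays and 28.7, 20.2 and 21.1 on control arrays, without overlap between the groups, and differed by -0.76 (SE 0.25; limma over 390 probes, adjusted p = 0.0841). It was detected on 1 ARM and 3 control arrays, so its direction was in part set by the detection criterion. Of the 390 probes, 22.1% had ARM arrays all below control arrays.

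Of the miR-542 hairpin the 5p arm fell, while the 3p arm did not pass the test. miR-542-5p had levels of 4.29, 3.91 and 4.36 on ARM arrays 1 to 3, against 5.54, 5.26 and 4.77 on control arrays 1 to 3. All ARM arrays lay below all control arrays, the closest 2 being 0.40 apart. Means were 4.19 ± 0.24 in ARM and 5.19 ± 0.39 in control (SD, n = 3 each), a difference of -1.002 (SE 0.25) and 49.9% of the control level (limma, adjusted p = 0.0396).

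The survivin repressor miR-542-3p had levels of 3.60, 2.96 and 4.00 on ARM arrays 1 to 3, against 4.65, 4.56 and 3.77 on control arrays 1 to 3. Here control array 3 lay below ARM array 3. Its means were 3.52 ± 0.52 in ARM and 4.33 ± 0.48 in control (SD, n = 3 each), a difference of -0.80 (SE 0.34; limma, adjusted p = 0.121). The 5p minus 3p difference in log2 level within an array averaged 0.67 ± 0.29 in ARM and 0.86 ± 0.15 in control (SD, n = 3 each), so the arms were not shown to differ in their change (-0.20; two-sided exact permutation test, p = 0.4). The sign of that value turned with the total gene signal (0.32).

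miR-450a-5p, from the last hairpin of the cluster, had levels of 2.16, 2.08 and 2.39 on ARM arrays 1 to 3, against 2.82, 2.65 and 2.48 on control arrays 1 to 3. ARM arrays lay below control arrays, with 0.09 between the closest 2. The difference of -0.44 (SE 0.18) did not pass the test (limma, adjusted p = 0.115). For miR-450a-5p, a probe below the floor of 1 on every array enters this mean over probes and shrinks the difference. Over its brightest probe, the only one of 2 that was detected, scaled signals were 19.9, 17.9 and 27.4 on ARM arrays and 49.7, 39.3 and 31.1 on control arrays, a log2 difference of -0.88 (SE 0.25; limma over 390 probes, adjusted p = 0.0573). That probe was detected on 2 ARM and 3 control arrays, so its direction was in part set by the detection criterion.

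**Figure D1:**
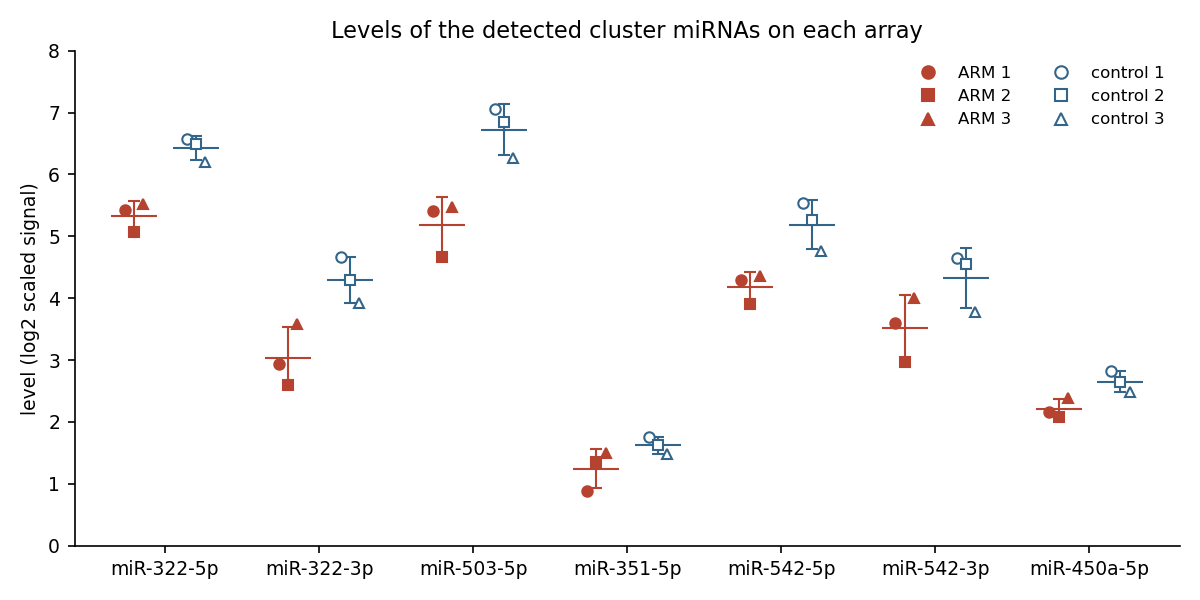
Level of each detected cluster miRNA on each array (log2 of the scaled signal, vertical axis), with ARM arrays as filled red symbols and control arrays as open blue ones, the replicate number given by the symbol's shape. Horizontal lines are group means and vertical bars 1 SD (n = 3 each); the groups are apart for miR-322-5p, miR-322-3p, miR-503-5p, miR-542-5p and miR-450a-5p, and overlap for miR-351-5p and miR-542-3p.

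Thus 4 of the 7 tested members, miR-322-5p, miR-322-3p, miR-503-5p and miR-542-5p, were lower in ARM and passed the test, and the other 3 did not pass it. Among all tested miRNAs 31 of 230 (13.5%) passed it, 26 (11.3%) lower and 5 (2.17%) higher. All 7 fold changes were negative, against 40.4% of all tested miRNAs, although those of miR-351-5p and miR-450a-5p turned positive with normexp background correction (0.16 and 0.023). ARM arrays all lay below control arrays for 5 of 7, against 22.6% of all tested miRNAs. The median of the 7 was -1.002, beside 0.17 for all tested miRNAs. These counts describe members that had been picked with earlier results of the same arrays known, and miR-351-5p and miR-450a-5p entered with detection on all controls but on only part of the ARM arrays. They are no independent evidence of direction.

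The 4 differences stayed negative when any 1 array was left out, but their calls did not all hold. Within slide 1, where 2 ARM arrays met all 3 controls, the differences were -1.18 for miR-322-5p, -1.52 for miR-322-3p, -1.68 for miR-503-5p and -1.09 for miR-542-5p. Their adjusted p there was 0.0607 for the first 3 and 0.0888 for miR-542-5p (limma with slide as a block). None passed, as was the case for all 230 miRNAs (78 with an unadjusted p under 0.05). Leaving out ARM array 3, the only array on slide 2, is the same comparison. Only 1 of the 4, miR-503-5p, passed without ARM array 1, none passed without ARM array 2, ARM array 3, control array 1 or control array 2, and all 4 passed without control array 3, when miR-542-3p passed as well (-1.08, limma adjusted p = 0.0497) and 21.3% of all tested miRNAs were called lower. With normexp background correction miR-503-5p (-0.68) and miR-322-5p (-0.43) still passed, while miR-542-5p (-0.16) and miR-322-3p (-0.10) did not, and with the total gene signal of the scanner's software only miR-322-5p did. Over all 22 alternatives the adjusted p ran from 0.0113 to 0.173 for miR-322-5p, from 0.0177 to 0.266 for miR-322-3p, from 0.0113 to 0.184 for miR-503-5p, from 0.0128 to 0.196 for miR-542-5p and from 0.0476 to 0.709 for miR-542-3p. With arrays weighted by their spread, 6 members passed, all but miR-351-5p, beside 21.7% of all tested miRNAs called lower.

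**Figure D2:**
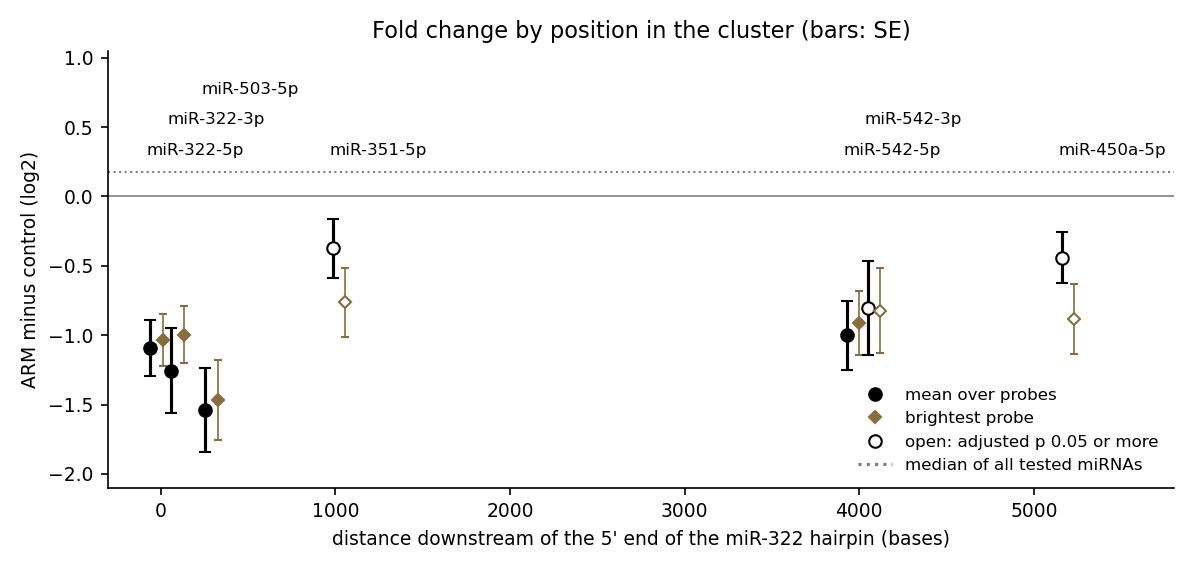
ARM minus control difference (log2, vertical axis) of each detected member against the distance of its hairpin's start from that of miR-322 (bases, horizontal axis; arms and probe summaries are shifted sideways for legibility). Black circles are the mean over probes and brown diamonds the brightest probe, bars are the SE, open symbols did not pass the test, and the dotted line is the median of all tested miRNAs, 0.17; every symbol lies below 0, and the lowest circle is that of miR-503-5p at -1.54.

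The 7 members had 16 probes, of which 9 were detected on 3 or more arrays and 6 on all arrays. Of the 6 detected on all arrays, 5 had ARM arrays all below control arrays, and the same 5 were lower and passed the test. Over the 390 probes tested the shares were 22.1% and 12.8%, but that set also holds probes detected on only part of the arrays. The 5 were both probes of miR-322-5p and the brightest of miR-322-3p, miR-503-5p and miR-542-5p, and the exception was that of miR-542-3p. The other 3, the second probe of miR-503-5p and the brightest of miR-351-5p and miR-450a-5p, were detected on all control but not all ARM arrays, so their direction was in part set by the criterion. Between the spots of a probe detected on all arrays, the coefficient of variation ranged from 1.48% to 20.5%, with a median of 5.11%.

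The brightest miR-503-5p probe had scaled signals of 98.8, 61.6 and 100.9 on ARM arrays and 294, 254 and 173 on control arrays, a log2 difference of -1.47 (SE 0.29; limma over 390 probes, adjusted p = 0.0355). Its second probe had 18.5, 10.4 and 19.7 on ARM arrays and 60.8, 52.6 and 34.0 on control arrays (-1.61, SE 0.33). Of these the second was not detected on ARM arrays 1 and 2. Both probes placed every ARM array below every control array.

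For miR-322-5p the brighter probe had 71.0, 56.1 and 69.6 on ARM arrays and 150.1, 132 and 120.3 on control arrays, a log2 difference of -1.04 (SE 0.19). The dimmer one had 26.0, 19.9 and 30.2 on ARM arrays and 60.4, 61.7 and 45.3 on control arrays (-1.14, SE 0.23), and both were detected on every array. Spots of the dimmer one varied by 11.7% to 20.5% on an array. These were the only 2 probes of 1 member that were both above background on all arrays, and they differed by less than their SE.

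The level of miR-322-3p rested on 1 detected probe, at 36.9, 29.4 and 41.6 on ARM arrays and 80.7, 71.7 and 61.9 on control arrays. That probe alone differed by -0.995 (SE 0.20), beside -1.26 for the mean with the undetected second probe. For miR-542-5p the brighter probe had 39.1, 29.9 and 37.3 on ARM arrays and 83.0, 67.8 and 51.8 on control arrays, a difference of -0.91 (SE 0.23). With only detected probes averaged, 5 members were lower and passed the test, miR-450a-5p being added (-0.88, limma adjusted p = 0.0499), beside 13.9% of all tested miRNAs.

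Within each group the members ranked the arrays alike. For 5 of the 7, the order of levels in ARM was array 3, then 1, then 2, and in control array 1, then 2, then 3, with all ARM arrays below. Control array 3 was the lowest control for 7 of 7 members, as it was for 35.2% of all tested miRNAs, and control array 1 the highest for 7 of 7, against 23.9%. ARM array 3 was the highest ARM array for 7 of 7 (47.4% of all tested) and ARM array 2 the lowest for 6 of 7 (48.7%). Pearson's r between the levels of 2 members over the 6 arrays ranged from 0.648 to 0.995 over 21 pairs, and from 0.964 to 0.992 over the 6 pairs of members that passed the test; the arrays, their scaling and the difference between the groups are shared by all of these values.

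The same order of arrays was found in the mean of the striated muscle list, at 4.96, 3.85 and 5.10 on ARM arrays 1 to 3, against 8.17, 7.91 and 6.32 on control arrays 1 to 3. Of its 10 miRNAs 5 were tested, and 4 were called lower. They were miR-206-3p (-4.11, SE 0.87), specific to skeletal muscle, miR-1-3p (-3.62, SE 0.68), miR-133b-3p (-3.16, SE 0.55) and miR-1b (-1.64, SE 0.31). The other, miR-133a-3p, was not called, but all 5 fold changes were negative. Singly, of the 4 called, only miR-133b-3p had the order of arrays seen in the list mean. Among ARM arrays, miR-206-3p (6.79 on array 1, 6.55 on array 3) and miR-1-3p (4.50 and 4.03) were highest on array 1. In contrast, miR-1b was lowest there. The share of all tested miRNAs with this order was not counted. The summed scaled signal of the 5 ranged from 169 to 350.4 in ARM and from 1015 to 4232 in control. The heart and slow-muscle miRNAs miR-208a-3p, miR-208b-3p and miR-499-5p were not tested, nor were miR-133a-5p and miR-206-5p. With the total gene signal in place of the mean over probes the list median was 1.73 in place of -3.16, and miR-1-3p (1.73) and miR-1b (2.18) were higher in ARM, miR-1b past the threshold (limma, adjusted p = 0.0450). Lower and called under that setting too were miR-133b-3p (-3.13) and miR-206-3p (-3.75), each with an adjusted p of 0.0450. The part of striated muscle RNA in the cluster's difference was not tested.

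Called miRNAs of 2 further cell type lists were also lower in ARM. Of 2 liver miRNAs, miR-122-5p was tested and fell (-4.44, SE 0.77; -1.38 with normexp background correction). It was detected on 1 of 3 ARM arrays, so 2 of the ARM values behind that fold are not above background, with a scaled signal of 2.61 to 25.0 in ARM and 113 to 226 in control. Of 4 erythroid miRNAs 2 were tested and both fell, miR-451-5p (-1.64, SE 0.30) and miR-486 (-1.78, SE 0.28), with sums of 74.3 to 115 in ARM and 223 to 399 in control. The miR-144 arms were not detected. Their part in the cluster's difference was not tested.

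The remaining lists had no call with the reported processing. The intestinal epithelial list had a median of 1.01, with its brightest members miR-192-5p at 1.33 (SE 0.52) and miR-200b-3p at 0.99 (SE 0.39), and summed signals of 1952 to 3133 in ARM and 618 to 1760.0 in control. Medians were 0.56 for smooth muscle (2 of 4 tested), 0.51 for stratified epithelium (2 of 2; miR-203a-3p and miR-205), -0.33 for mesenchyme (3 of 4; miR-199a-3p and miR-214-3p the brightest), -0.69 for neurons and glia (2 of 9; miR-128-3p and miR-212-3p), 0.16 for leukocytes (3 of 5; miR-223-3p and miR-142-3p) and -0.04 for endothelium (miR-126a-3p only). The mesenchyme list had summed signals of 2661 to 3217 in ARM and 3225 to 4222 in control. With no scaling, miR-199a-3p (-0.61) and miR-214-3p (-0.64) were called lower (limma, adjusted p = 0.0491 for both), and miR-128-3p (-1.43, adjusted p = 0.0473) was called lower when arrays were scaled over all probes.

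No miRNA that shares the seed of miR-322-5p but comes from another chromosome passed the test. The list of these relatives held 7 miRNAs, among them miR-195-3p and miR-497-3p, opposite arms that do not carry the seed. Those tested were 4, miR-15b-5p and miR-16-5p from 1 locus on chromosome 2, and miR-195-5p and miR-497-5p from 1 on chromosome 10. miR-16-5p had levels of 9.94, 9.91 and 9.61 on ARM arrays 1 to 3, against 9.46, 9.62 and 9.95 on control arrays 1 to 3, overlapping between the groups. None of the 4 was called, with differences of 0.41 (SE 0.22) for miR-15b-5p, 0.15 (SE 0.20) for miR-16-5p, 0.41 (SE 0.28) for miR-195-5p and 0.33 (SE 0.20) for miR-497-5p (limma, lowest adjusted p 0.186). Their median of 0.37 was 0.05 with no scaling, when miR-16-5p was at -0.17.

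Differences between 2 miRNAs within an array were compared next, since a factor common to all signals of an array cancels in them where neither value is at the floor. The level of miR-322-5p minus that of miR-16-5p was -4.51, -4.85 and -4.10 on ARM arrays 1 to 3, against -2.89, -3.12 and -3.74 on control arrays 1 to 3. Every ARM value was lower than every control value, a difference of -1.24 between the means. For miR-503-5p minus miR-16-5p the values were -4.52, -5.25 and -4.13 on ARM arrays and -2.39, -2.77 and -3.69 on control arrays, a difference between the means of -1.68. All 8 combinations of miR-322-5p or miR-503-5p with the 4 relatives were lower in ARM without overlap, with differences of -1.24 to -1.95 between the means (the same with no scaling, -1.22 to -1.81 with quantile normalization and -0.53 to -1.02 with normexp background correction). Each had the smallest p that 3 against 3 samples allow (two-sided exact permutation test, p = 0.1; 0.15 after Benjamini-Hochberg adjustment over 12 pairs), so this design could not take any of them below 0.05. The 8 reuse 2 members whose own levels were already apart between the groups, so they are not 8 separate results. Differences from unrelated miRNAs outside the cluster were not computed, so the separation is not shown to be particular to seed relatives.

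No such separation was seen for miR-351-5p. Its level minus that of miR-125a-5p differed by -0.56 between ARM and control, and minus that of miR-125b-5p by -0.06 (two-sided exact permutation test on the reported levels, p = 0.3 and p = 0.7). The first value turned positive with normexp background correction (0.0093). The other turned positive with no scaling (0.10), a floor of 10 (0.13) and normexp background correction (0.45). It also did so without ARM array 1 (0.14) and without control array 2 (0.099). The relatives themselves did not pass the test, at 0.19 (SE 0.20; -0.13 with no scaling) for miR-125a-5p and -0.32 (SE 0.22) for miR-125b-5p. Both pairs overlapped between the groups.

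**Figure D3:**
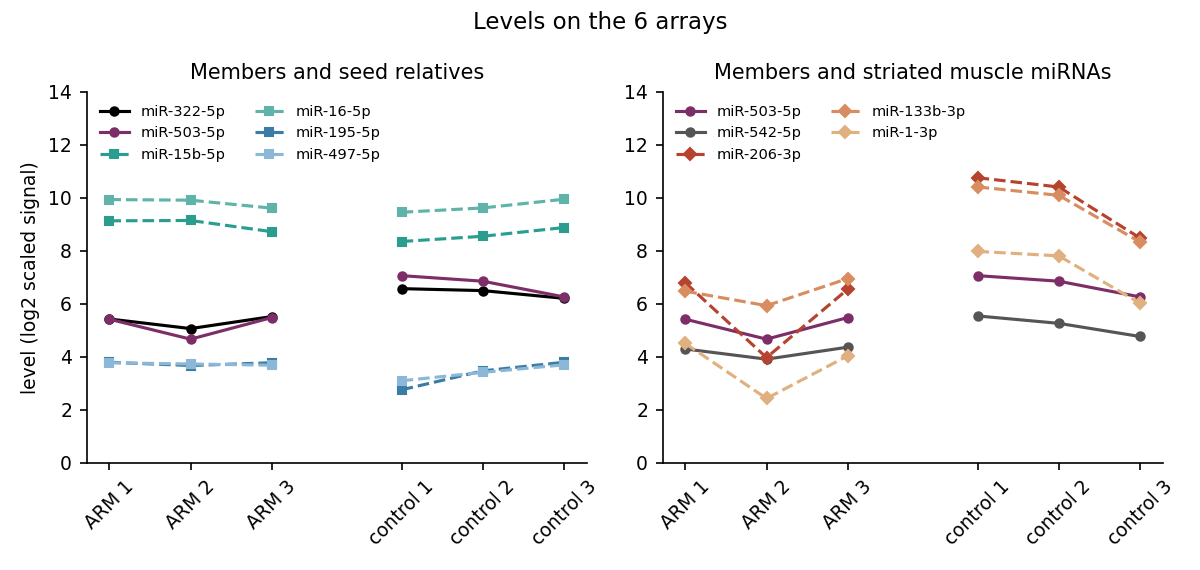
Levels (log2 of the scaled signal, vertical axis) on the 3 ARM and 3 control arrays, the lines only joining the arrays of 1 group. On the left, miR-322-5p and miR-503-5p (solid) are lower on ARM arrays while their seed relatives (dashed) overlap between the groups; on the right, miR-503-5p and miR-542-5p (solid) run with the striated muscle miRNAs miR-206-3p, miR-133b-3p and miR-1-3p (dashed), all lowest on ARM array 2 and, among controls, on control array 3.

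Among the other miRNAs of the X chromosome, calls were made in both directions, at a share near that of all tested miRNAs. RefSeq placed 17 tested miRNAs outside the cluster only on this chromosome, among 209 of the 230 that matched its table. Of the 17, 2 were called, beside 13.5% of all tested miRNAs. Called lower was miR-532-3p (-0.68, SE 0.18; limma, adjusted p = 0.0487; detected on 1 of 3 ARM arrays, and at 0.053 with normexp background correction). Called higher was miR-221-3p, which no control array detected and which was at least 1.18-fold higher in ARM, but called lower with the total gene signal (-2.44). Their median was 0.22, or -0.10 with no scaling, and 6 of 17 were negative. Of the 17, 4 had ARM arrays all below control arrays, beside 22.6% of all tested miRNAs. They were miR-532-3p and the uncalled miR-532-5p (-1.13, SE 0.37), miR-500-3p (-0.74, SE 0.23, limma adjusted p = 0.0627, and 0.0491 with no scaling) and miR-362-3p (-0.59, SE 0.24). These 4 belong to 1 other X chromosome cluster, that of miR-532, miR-188, miR-362 and miR-500, so they are not separate loci. From the same cluster, miR-188-5p was at -0.42 (SE 0.34) and overlapped between the groups. ARM arrays lay all above control arrays for miR-98-5p, miR-384-5p, miR-20b-5p, miR-3559-5p and miR-221-3p. The same held for miR-17-5p and miR-92a-3p, which lie near the cluster and have copies elsewhere. How many of all tested miRNAs lay apart in this upward direction was not counted. Whether it was unusual for these miRNAs can therefore not be read from the list. Closest to the cluster, among 12 miRNAs on the array within 1000000 bases, 4 were tested: miR-17-5p (0.65, SE 0.19), miR-20b-5p (0.62, SE 0.20), miR-92a-3p (0.48, SE 0.18) and miR-19b-3p (0.43, SE 0.20). None of these miRNAs, all linked to proliferation, was called. With no scaling they were at 0.33, 0.30, 0.17 and 0.12, while miR-17-5p passed with quantile normalization (limma, adjusted p = 0.0377) and normexp background correction (adjusted p = 0.0437), and miR-20b-5p with quantile normalization (adjusted p = 0.0479). All but miR-20b-5p also have copies elsewhere in the genome.

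**Figure D4:**
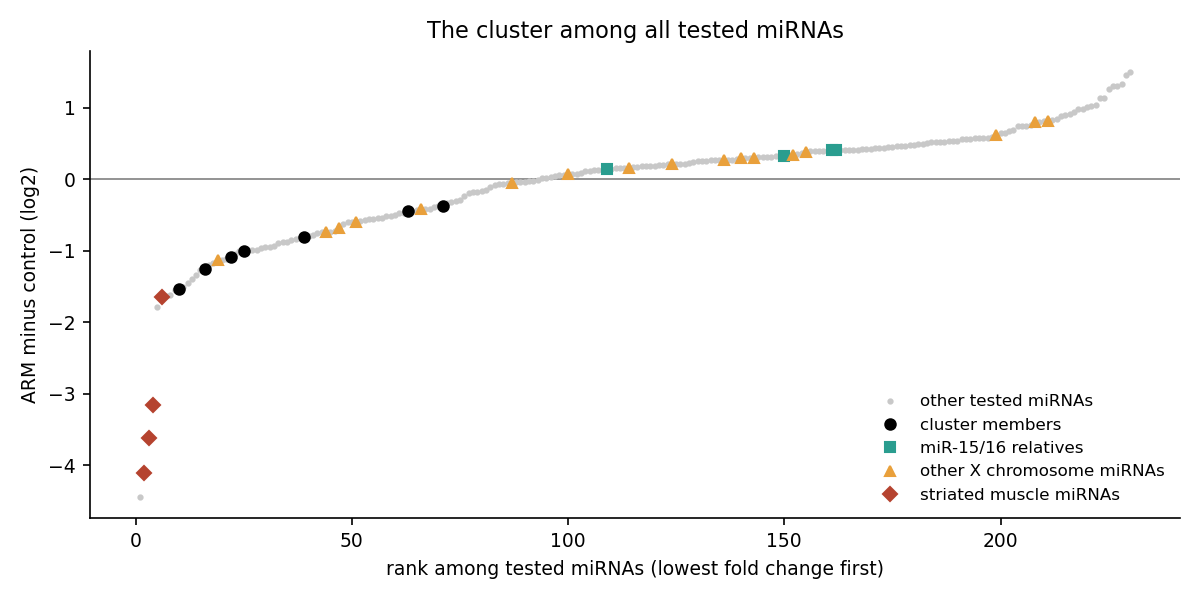
ARM minus control difference (log2, vertical axis) of all 230 tested miRNAs in order of that difference (horizontal axis, rank), with cluster members in black, miR-15/16 relatives in green, other X chromosome miRNAs in orange and the called striated muscle miRNAs in red. The 7 cluster members all lie below 0 and above the 4 called striated muscle miRNAs, and the 4 seed relatives lie above 0 with this scaling.

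For each of the 4 called members, the 3 tested miRNAs outside the cluster with the most similar levels were found. Likeness was Pearson's r of the log2 levels over the 6 arrays, taken over all tested miRNAs outside the cluster, and it holds the difference between the groups as well as the order within them. The levels of miR-503-5p were most like those of the muscle miRNAs miR-206-3p (r = 0.995) and miR-1-3p (r = 0.994), followed by miR-379-5p (r = 0.993). miR-542-5p was most like miR-379-5p, miR-434-3p (both r = 0.997) and miR-409a-5p (r = 0.993), which belong to the imprinted Dlk1-Dio3 cluster.

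For miR-322-5p the most alike were miR-376b-3p (r = 0.987), miR-379-5p (r = 0.986) and miR-1-3p (r = 0.983), and for miR-322-3p miR-487b-3p (r = 0.988), miR-127-3p (r = 0.980) and miR-411-3p (r = 0.974). Apart from miR-1-3p these too are Dlk1-Dio3 miRNAs. The fold changes differed in size, from -0.73 (SE 0.24) for miR-409a-5p to -4.11 (SE 0.87) for miR-206-3p, beside -1.002 to -1.54 for the 4 members.

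**Figure D5:**
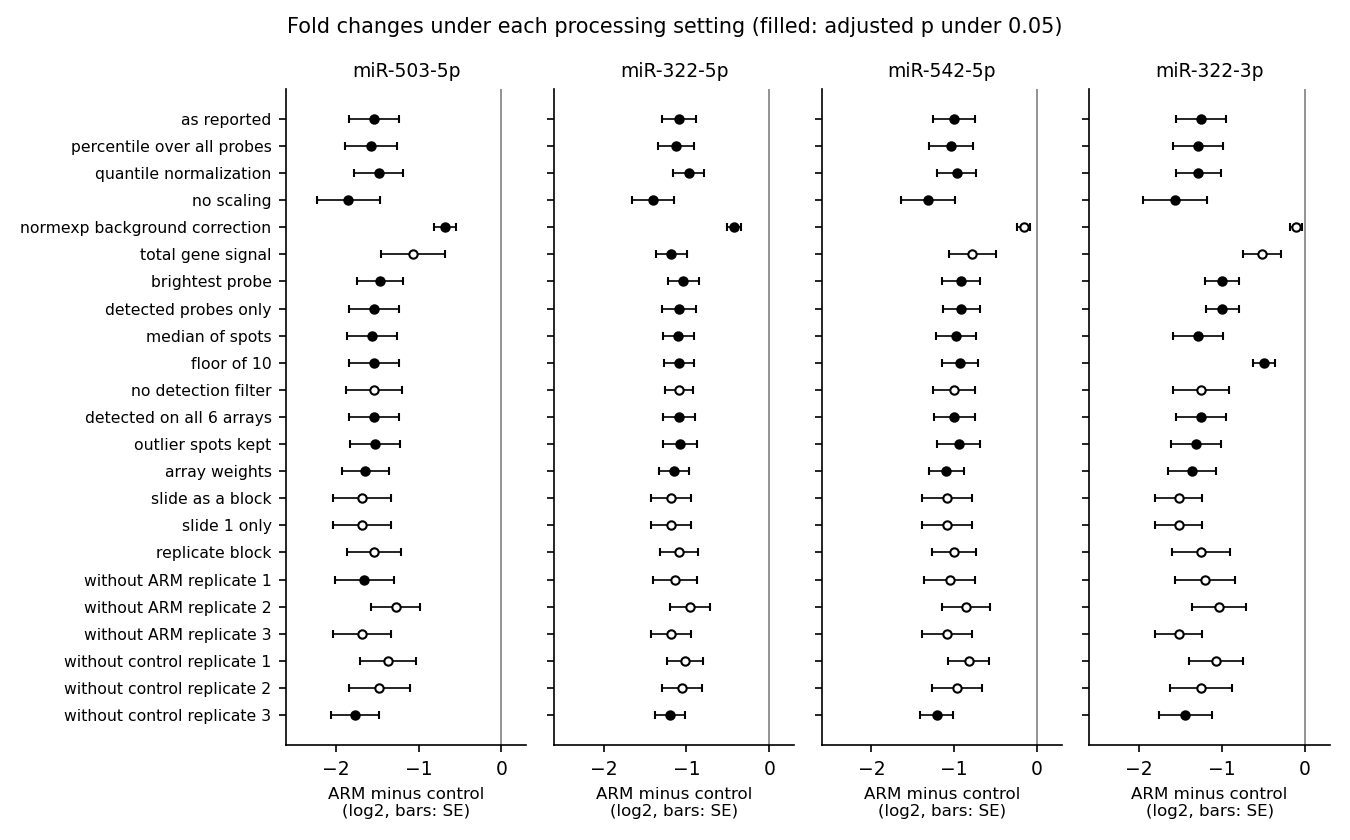
ARM minus control difference (log2, horizontal axes; bars are the SE) of the 4 members that passed the test, one panel each, under the reported setting and 22 alternatives (vertical axis). Filled points have an adjusted p under 0.05; every point lies below 0, and the points nearest to 0 for miR-322-3p and miR-542-5p are those with normexp background correction, at -0.10 and -0.16.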

How the data were processed

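The sample titles gave groups and replicate numbers. Per the file headers, the deposited intensity of each spot was made by the authors with Agilent Feature Extraction 10.7.1.1, which subtracts background, with no scaling between arrays; the value table held the same intensity (largest difference 0). The total gene signal, used as an alternative, is a software intensity per miRNA, per the file headers. Control spots and outlier spots were left out and the other spots of a probe averaged. Signals were scaled to each array's 75th percentile over the 300 probes that all 6 arrays detected, floored at 1 and converted to log2. ARM was compared with control by limma 3.58.1 (lmFit and eBayes, R 4.3.3) with Benjamini-Hochberg adjustment over all 230 tested miRNAs, or over 390 probes, at 0.05. On simulated data, with each miRNA drawn independently, the procedure recovered 65.75% of 2-fold and 92.05% of 4-fold changes. Of its calls there, 4.825% were false. Seeds and positions are from RefSeq (GRCr8). The cluster, its members, the marker lists and the tests were chosen with earlier results of these data known. Named miRNAs were every member, the tested seed relatives, the 2 brightest and any called miRNA of each list, called or near X chromosome miRNAs, and the 3 most alike of each called member. Same-numbered ARM and control samples did not deviate together (r = -0.07, -0.28 and -0.21), so the numbers were not taken as pairs.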

Additional observations from a re-analysis of the deposited data

How the results depend on the processing

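The calls depended on the processing more than the directions did. Over 22 alternatives, miR-322-5p, miR-322-3p, miR-503-5p, miR-542-5p and miR-542-3p kept a negative sign in all. With normexp background correction miR-351-5p (0.16) and miR-450a-5p (0.023) turned positive, 16 miRNAs and 2 members (miR-322-5p and miR-503-5p) passed the test, and miR-322-3p (-0.10) and miR-542-5p (-0.16) did not. With the total gene signal 15 miRNAs and 1 member (miR-322-5p) passed; there miR-351-5p was at -3.17, the software giving 715 on control array 3 and 0.10 on ARM array 2. With array weights 87 miRNAs and 6 members passed. By limma, 0 miRNAs and 0 members passed with no detection filter (134 miRNAs and 5 members at an unadjusted p under 0.05), with slide as a block or on slide 1 only (78 and 6), and with the replicate number as a block (73 and 4). Slide as a block, slide 1 only and leaving out ARM array 3 gave the same values, that array being alone on slide 2. Leaving out 1 array gave 0 to 92 miRNAs and 0 to 5 members. The cause was not tested. The miR-322-5p difference ranged from -1.40 to -0.43, and that of miR-503-5p from -1.85 to -0.68. The 8 within-array differences from seed relatives stayed negative in all 22. No scaling, scaling over all probes, a changed detection filter and the replicate block left all 8 at their reported values. Those settings could not change them and so did not test their sign. For miR-351-5p and miR-450a-5p, signals close to background limit what can be measured.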
